A study of Capra hircus with 9 samples.

Results

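The miR-26 family was described in small RNA libraries from the submandibular gland, a large salivary gland, of 9 healthy female Lubo goats, 3 for each age of 1, 12 and 24 months. All goats were kept under shared conditions with natural light and free feeding, and the labels name no other treatment. Each library came from total RNA of gland tissue, with 3 goats per age. Libraries are named by age and the number in their label: 1-month 1, 2 and 3, 12-month 3, 4 and 5, and 24-month 2, 3 and 5. The members were all entries of the deposited count table whose number after "miR-" is 26, which gave 5 of 2189 entries: chi-miR-26a-5p, chi-miR-26b-5p, chi-miR-26b-3p, miR-26-x and miR-26-y. The prefix chi- marks goat names; what the endings -x and -y stand for is not given in the sources used here, and by sequence miR-26-x belongs to the 5p arm and miR-26-y to the 3p arm. The family was chosen by its read counts in these libraries, in which chi-miR-26a-5p has the highest mean level, so the levels below are a description, and only differences between ages, which the choice did not use, were tested.

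miR-26 is a miRNA family conserved across vertebrates. A mature miRNA of about the length of those below guides the silencing complex to target mRNAs mainly through its seed, bases 2 to 8 from the 5′ end. miR-26 genes lie inside introns of CTDSP genes, which encode small phosphatases, and the miRNAs and their hosts are known for restraining cell cycle entry, with the histone methyltransferase EZH2 among the best known targets. In the RefSeq gene table of the goat assembly ARS1.2, MIR26A lies inside the span of CTDSPL and MIR26B inside the span of CTDSP1. The build used for the deposited counts is not given in the sources used here, so no coordinates are given.

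The 5 sequences, as listed in the deposited table in DNA letters, show which members can share targets, with the seed in capitals.
chi-miR-26a-5p: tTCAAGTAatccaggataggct
chi-miR-26b-5p: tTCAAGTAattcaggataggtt
miR-26-x: gTCAAGTAatccaggataggca
chi-miR-26b-3p: cCTGTTCTccattacttggctc
miR-26-y: cCTATTCTtgattacttgtttc
All 5p sequences (chi-miR-26a-5p, chi-miR-26b-5p and miR-26-x) share the seed TCAAGTA. No entry outside the family held this seed, none was named miR-1297 or miR-4465, which carry it in other species, and no other entry began with the first 18 bases of chi-miR-26a-5p. Counted from 1 at the 5′ end, chi-miR-26b-5p differs from chi-miR-26a-5p by C11T and C21T, both outside the seed. miR-26-x differs from chi-miR-26a-5p by T1G and T22A, its first and its last base, and has the 20 bases between them in common. The 3p sequences have seeds of their own, CTGTTCT and CTATTCT, and differ from each other by G4A, C9T, C10G, G19T and C20T. Laid against the 5p strands without gaps, miR-26-y could pair at 16 of 20 overlapping bases with chi-miR-26a-5p and at 15 with chi-miR-26b-5p, and chi-miR-26b-3p at 14 with each. Each of the 5 sequences is 22 bases long and belongs to a single entry of the table.

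Library totals ran from 8288492 to 13277448 counts. Library 1-month 2 stood apart in its makeup: the leukocyte miRNAs (miR-142, miR-150, miR-155, miR-223, miR-146 and miR-342) took 12.7% of its counts, against 3.73% to 5.78% in the other 1-month libraries and 0.477% to 0.712% later. The epithelial miRNAs (miR-200, miR-141, miR-429, miR-203, miR-205, miR-183, miR-96 and miR-182) took 0.875% there, against 3.97% to 5.82% in the others at 1 month and 10.3% to 11.9% later. In whole tissue, fewer cells of a type and less RNA per cell cannot be told apart. The p-values below set differences between ages against the spread between these animals.

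chi-miR-26a-5p, the main member, had the highest mean level of all entries over the 9 libraries, 110913 ± 14321 unscaled CPM (CPM is the count per 1000000 counts of the library; SD, n = 9). It was not first everywhere: it ranked first in 1-month 1 and 3 and second in the other 7 libraries. At 1 month the values were 117894, 125666 and 119984 unscaled CPM in libraries 1, 2 and 3, at 12 months 118216, 88672 and 122136 in libraries 3, 4 and 5, and at 24 months 114407, 87307 and 103936 in libraries 2, 3 and 5. The lowest values were those of 12-month 4 and 24-month 3, and library 1-month 2, poor in epithelial miRNAs, had the highest. The next entry by mean level, chi-miR-148a-3p, was above it in all 6 later libraries and below it in all 3 at 1 month. In 12-month 3 the difference was small, at 118359 unscaled CPM of chi-miR-148a-3p, while in 1-month 2 chi-miR-148a-3p stood at 4194 unscaled CPM. From the lowest to the highest library chi-miR-26a-5p spanned a factor of 1.44, against 33.3 for chi-miR-148a-3p and 34.2 for miR-181-x, and 1.72 for chi-miR-125b-5p and 2.55 for chi-miR-99a-5p. miR-181-x was above chi-miR-26a-5p in 1-month 2, at 130746 against 125666 unscaled CPM, and below it in the other 8 libraries. The remaining 7 of the 10 most abundant entries lay below chi-miR-26a-5p in every library.

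**Figure D1:**
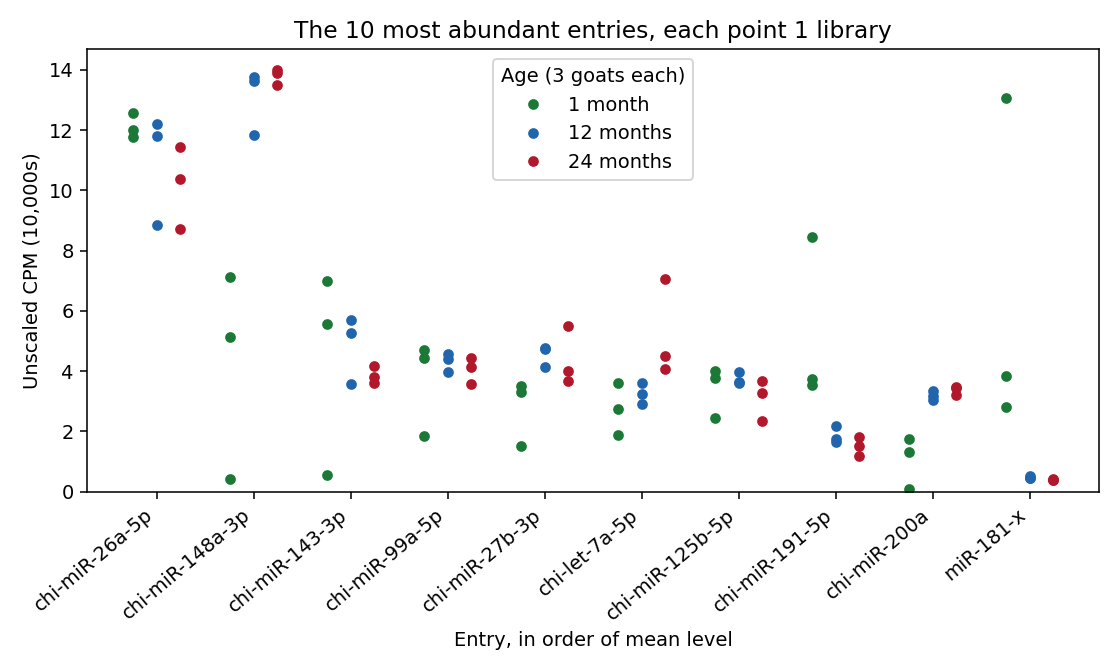
Unscaled CPM (linear axis from 0, in the multiples its label gives) of the 10 most abundant entries, in order of mean level, with 1 point per library and colours for age. chi-miR-26a-5p spans a factor of 1.44 over the 9 libraries, while chi-miR-148a-3p lies below it at 1 month and above it later.

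The spread of chi-miR-26a-5p over libraries was the smallest among the 50 most abundant entries, with an SD of 0.24 of log2 TMM-scaled CPM, where the median over these entries was 0.69. chi-miR-125b-5p was close to it, also at 0.24. TMM scaling sets each library total so that most entries hold a like level. In unscaled CPM its SD was 0.20 and ranked second from the smallest. Among 230 other entries with a mean of at least 100 TMM-scaled CPM, the profiles nearest to that of chi-miR-26a-5p over the 9 libraries were those of chi-miR-660, chi-miR-3431-5p, miR-652-y, chi-let-7f-5p and chi-miR-374b-5p, by the root mean square distance of centred log2 levels. That distance was 0.16 for chi-miR-660 and 0.27 for chi-miR-374b-5p. chi-miR-26b-5p, with the same seed, ranked 21st at 0.38, and miR-26-x ranked 63rd at 0.52.

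No member of the family was called between any 2 ages. With edgeR's quasi-likelihood test and Benjamini-Hochberg adjustment over 937 entries, 0 of 5 members passed between 1 and 12 months, where 19.2% of all entries passed, and 0 of 5 between 1 and 24 months, where 26.3% passed. Between 12 and 24 months 0 of 5 members passed, and 0.0% of all entries. At an unadjusted p under 0.05 the members numbered 0 in each comparison, against 39.9%, 42.6% and 4.27% of all entries. DESeq2 and limma voom also called 0 members in each. Without 1-month 2 the counts were 0, 1 (miR-26-x) and 0 for 12 against 1, 24 against 1 and 24 against 12 months. For these alternative settings the share of all entries that passed is not given here, so the counts cannot be set against it. A joint test of any difference between the 3 ages called 0 members and 20.5% of entries. On the TMM scale the ages of every member overlapped in every comparison, where 48.5%, 47.2% and 9.82% of all entries did not overlap (12 against 1, 24 against 1 and 24 against 12 months).

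**Figure D2:**
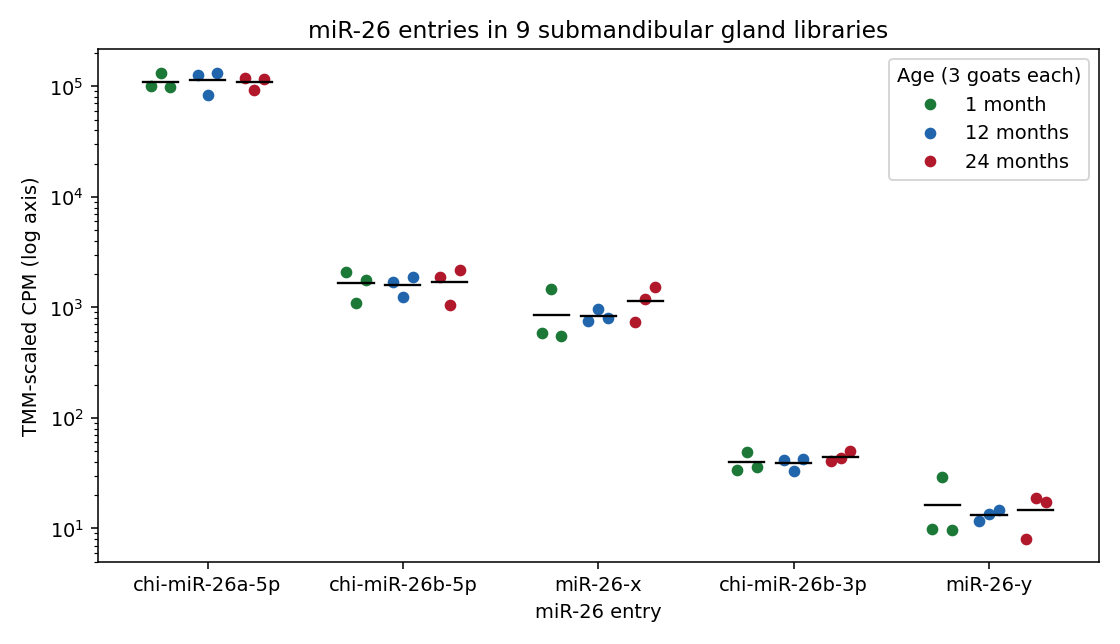
TMM-scaled CPM (log axis) of the 5 miR-26 entries, with 1 point per goat, colours for age and a line at the mean of each age. chi-miR-26a-5p lies far above the other members at every age, and the ages overlap for each entry.

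For chi-miR-26a-5p the TMM-scaled levels were 110367 ± 19385, 114239 ± 26158 and 109568 ± 14890.2 CPM at 1, 12 and 24 months (SD, n = 3 each). The log2 difference was 0.05 (SE 0.31, 95% interval −0.63 to 0.73, adjusted p = 0.918 by edgeR) for 12 against 1 month. It was −0.06 (95% interval −0.74 to 0.62) for 24 against 12 months and −0.01 (−0.69 to 0.67) for 24 against 1 month. As a fold, the last interval ran from 0.621 to 1.59, so changes within that range were not resolved with 3 goats per age. With library size alone the differences were −0.14, −0.11 and −0.25 in the same order, and with upper quartile scaling 0.20, −0.05 and 0.15. The sign thus turned on the scaling for 12 against 1 and 24 against 1 month. For 24 against 12 months it was negative under each of these scalings. Library size alone also moved the median of all entries to −0.20, −0.09 and −0.36.

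In unscaled CPM the means of chi-miR-26a-5p were 121181, 109675 and 101883, with every 24-month library below every 1-month library (at most 114407 against at least 117894 unscaled CPM). Among all entries 46.0% did not overlap between these ages on that scale. chi-miR-26b-3p was the single member whose unscaled levels did not overlap between 1 and 12 months, at 39.7 to 46.7 and 35.0 to 39.2 CPM, against 46.1% of all entries. Between 12 and 24 months 0 members did not overlap in unscaled CPM, against 9.5% of all entries. All 5 members together took 12.4 ± 0.367% of counts at 1 month, 11.2 ± 1.83% at 12 months and 10.5 ± 1.40% at 24 months (SD, n = 3 each). chi-miR-26a-5p made up 96.9% to 98.1% of the family's counts in each library.

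**Figure D3:**
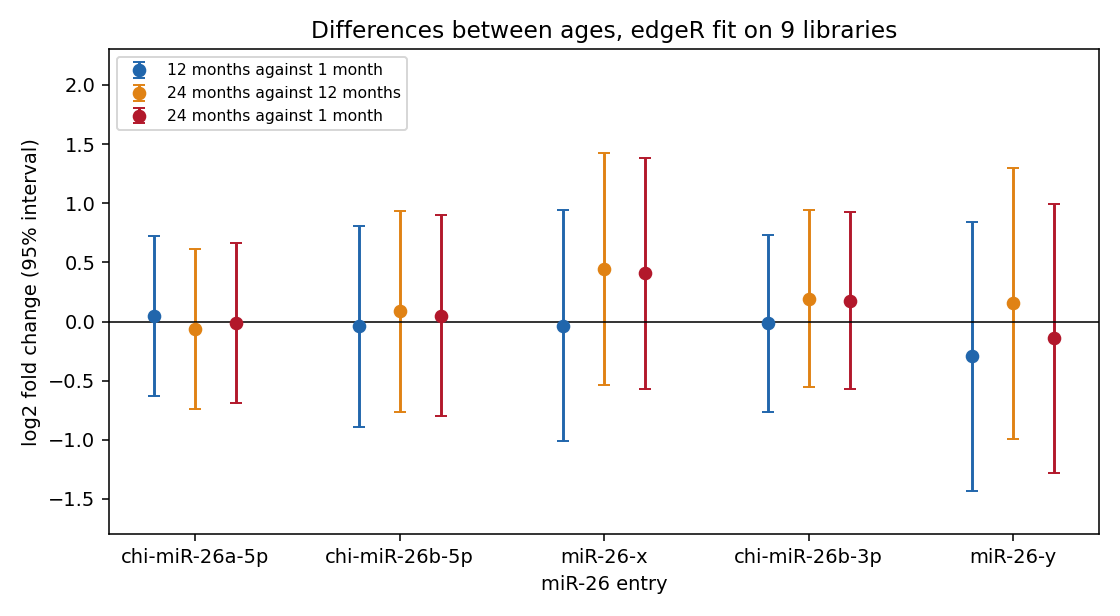
Log2 fold change between ages for each miR-26 entry from the edgeR fit on TMM-scaled counts, with 95% intervals. All 15 intervals include 0, and those of miR-26-x and miR-26-y are the widest.

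chi-miR-26b-5p, the product of the CTDSP1-hosted gene, stood at 1.502 ± 0.388% of chi-miR-26a-5p (SD, n = 9). At 1 month the TMM-scaled levels were 2099, 1095 and 1753 CPM in libraries 1, 2 and 3, at 12 months 1680, 1234 and 1901 in libraries 3, 4 and 5, and at 24 months 1893, 1045 and 2173 in libraries 2, 3 and 5. Libraries 1-month 2, 12-month 4 and 24-month 3 were the lowest of their ages, so that the spread lay within ages and not between them. The log2 differences were −0.04 (SE 0.39, adjusted p = 0.954 by edgeR), 0.09 (SE 0.39, adjusted p = 0.998) and 0.05 (SE 0.39, adjusted p = 0.945) for 12 against 1, 24 against 12 and 24 against 1 month. Their signs were not stable: the first was 0.09 with upper quartile scaling and the last −0.26 with library size alone. The ratio of chi-miR-26b-5p to chi-miR-26a-5p within a library was 1.57 ± 0.665%, 1.41 ± 0.0702% and 1.52 ± 0.367% at 1, 12 and 24 months. It ran from 0.825% in 1-month 2 (95% Wilson interval 0.811 to 0.839%) to 2.10% in 1-month 1 (2.08 to 2.13%), and both extremes were 1-month libraries.

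The 3p arms, the strands opposite the main products and mostly discarded when the silencing complex is loaded, were rare. chi-miR-26b-3p stood at 39.5 ± 8.56, 39.1 ± 5.05 and 44.7 ± 4.99 TMM-scaled CPM at 1, 12 and 24 months, and its log2 differences of −0.01, 0.19 and 0.18 (12 against 1, 24 against 12 and 24 against 1 month) did not pass (adjusted p = 0.980, 0.998 and 0.739 by edgeR). With upper quartile scaling the first was 0.13 and with library size alone the last was −0.06. As a share of its 5p partner, chi-miR-26b-3p took 1.60%, 4.51% and 2.03% in 1-month 1, 2 and 3, 2.49%, 2.70% and 2.22% in 12-month 3, 4 and 5, and 2.15%, 4.11% and 2.32% in 24-month 2, 3 and 5. The high values were those of 1-month 2 and 24-month 3, which also had the lowest chi-miR-26b-5p, while chi-miR-26b-3p itself was not the lowest of its age there. The ages overlapped.

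**Figure D4:**
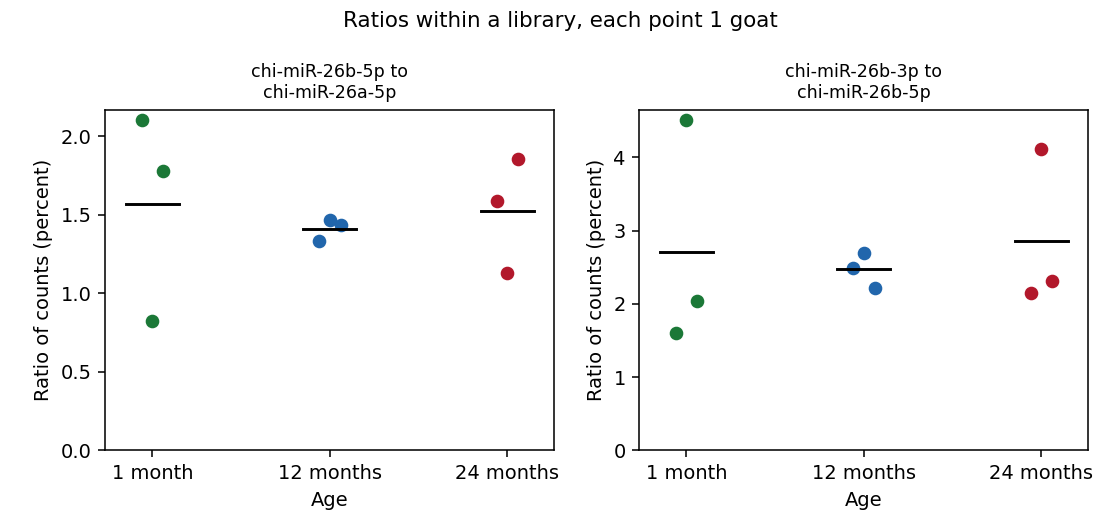
Counts of chi-miR-26b-5p as a percent of chi-miR-26a-5p (left) and of chi-miR-26b-3p as a percent of chi-miR-26b-5p (right), with 1 point per library and a line at the mean of each age. In both panels the widest spread is at 1 month and the narrowest at 12 months.

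miR-26-y, the rarest member, held 83 to 365 counts per library. Its TMM-scaled levels were 9.91, 29.04 and 9.74 CPM in 1-month 1, 2 and 3, 11.6, 13.5 and 14.5 in 12-month 3, 4 and 5, and 8.0, 18.8 and 17.4 in 24-month 2, 3 and 5. The wide spread at 1 month came from library 2. The log2 differences of −0.29, 0.15 and −0.14 (12 against 1, 24 against 12 and 24 against 1 month) did not pass (adjusted p = 0.686, 0.998 and 0.872 by edgeR), and without 1-month 2 the last was 0.56 (adjusted p = 0.302). It was 0.06 with upper quartile scaling.

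miR-26-x, the sequence with a G in place of the first T of chi-miR-26a-5p, fell into separate sets of libraries that crossed the ages. Its TMM-scaled levels were 581, 1459 and 546 CPM in 1-month 1, 2 and 3, 750.4, 974 and 799.7 in 12-month 3, 4 and 5, and 731, 1181 and 1518 in 24-month 2, 3 and 5. The log2 differences were −0.03 (SE 0.44, adjusted p = 0.965), 0.44 (SE 0.44, adjusted p = 0.998) and 0.41 (SE 0.44, adjusted p = 0.522) for 12 against 1, 24 against 12 and 24 against 1 month by edgeR. The first was 0.12 with upper quartile scaling. Without 1-month 2 the 24-month value against 1 month was 1.00 with an adjusted p of 0.0399, the single call of any member under any setting tried. Without 24-month 5 it was 0.041 (adjusted p = 0.963).

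The ratio of miR-26-x to chi-miR-26a-5p, taken within a library and so free of scaling, was 0.582%, 1.10% and 0.554% in 1-month 1, 2 and 3. It was 0.595%, 1.16% and 0.604% in 12-month 3, 4 and 5, and 0.614%, 1.28% and 1.30% in 24-month 2, 3 and 5. Libraries 1-month 2, 12-month 4, 24-month 3 and 24-month 5 lay between 1.10% and 1.30%, the other 5 between 0.554% and 0.614%, and no library lay between. The Wilson 95% intervals of 0.600 to 0.628% in 24-month 2 and 1.08 to 1.12% in 1-month 2 show that counting error does not bridge the gap.

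By age the ratio was 0.745 ± 0.307%, 0.785 ± 0.321% and 1.06 ± 0.389% (SD, n = 3 each), with overlapping ages. The mean log2 ratio differed by 0.08, 0.43 and 0.51 for 12 against 1, 24 against 12 and 24 against 1 month (exact two-sided permutation p = 0.5, 0.2 and 0.2, adjusted over 3 comparisons 0.5, 0.3 and 0.3; 3 goats against 3 cannot go below 0.1). An exact permutation test of any difference between the 3 ages gave p = 0.361, where 0.00357 is the smallest possible. In the set of 5 libraries the ratio was 0.582% and 0.554% at 1 month, 0.595% and 0.604% at 12 months and 0.614% at 24 months, and in the set of 4 it was 1.10%, 1.16%, and 1.28% and 1.30%. In the set of 5 some counting intervals of neighbouring ages overlapped and some did not. That of 1-month 1 (0.569 to 0.596%) overlapped those of 12-month 3 (0.580 to 0.610%) and 12-month 5 (0.592 to 0.617%). Both of these overlapped that of 24-month 2 (0.600 to 0.628%). The interval of 1-month 3 (0.541 to 0.566%) overlapped neither 12-month interval. In the set of 4 the intervals of different ages did not overlap. These intervals hold counting error only and no spread between goats, so they cannot show a difference between ages. They were 1.08 to 1.12% in 1-month 2 and 1.13 to 1.18% in 12-month 4. At 24 months they were 1.25 to 1.30% in library 3 and 1.27 to 1.32% in library 5. No test was made within the sets, since the ratio itself separates them and they hold 1 or 2 libraries per age.

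The same 4 libraries were high in other entries that differ from a goat-named entry in their first base. Of pairs with at least 500 counts for each entry, 4 outside the miR-26 family differed at the first base and no other shared base. They are shown with that base in capitals because miR-26-x also differs from chi-miR-26a-5p at the first base.
chi-miR-140-3p: Accacagggtagaaccacggac
miR-140-y: Cccacagggtagaaccacggact
chi-miR-150: Tctcccaacccttgtaccagtg
miR-150-x: Gctcccaacccttgtaccagtga
chi-miR-194: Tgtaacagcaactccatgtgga
miR-194-x: Ggtaacagcaactccatgtggaa
chi-miR-378-3p: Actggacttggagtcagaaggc
miR-378-x: Cctggacttggagtcagaaggct
The changes were T1G for miR-150-x and miR-194-x, as in miR-26-x, and A1C for miR-140-y and miR-378-x, and each of the 4 variants runs on by 1 base. The mean ratio over the 4 pairs was 8.08%, 5.70%, 6.27% and 5.49% in 1-month 2, 12-month 4, 24-month 3 and 24-month 5, and 2.08% to 2.42% in the other 5 libraries. The libraries were set apart at the largest step of this mean on a log2 scale, so the mean separates them by construction. In each of the 4 pairs every library of the first set was above every library of the second. Since the same pairs set the libraries apart, this is no independent support for the split. The miR-26-x ratio was not used to set them apart. Beside chi-miR-378-3p the gap was small, with miR-378-x at 1.90% in 12-month 4 and 1.83% in 12-month 3. Beside chi-miR-140-3p, whose gene is known for its part in cartilage, miR-140-y took 9.18% to 15.3% in the set of 4 and 3.56% to 4.42% in the set of 5. With a minimum of 100 counts, 5 of 7 such pairs separated in this way, the 4 that set the libraries apart included. The 2 other pairs that differ at both the first and the last base, as miR-26-x does, were those of miR-17-y and miR-362-x, and neither separated.

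**Figure D5:**
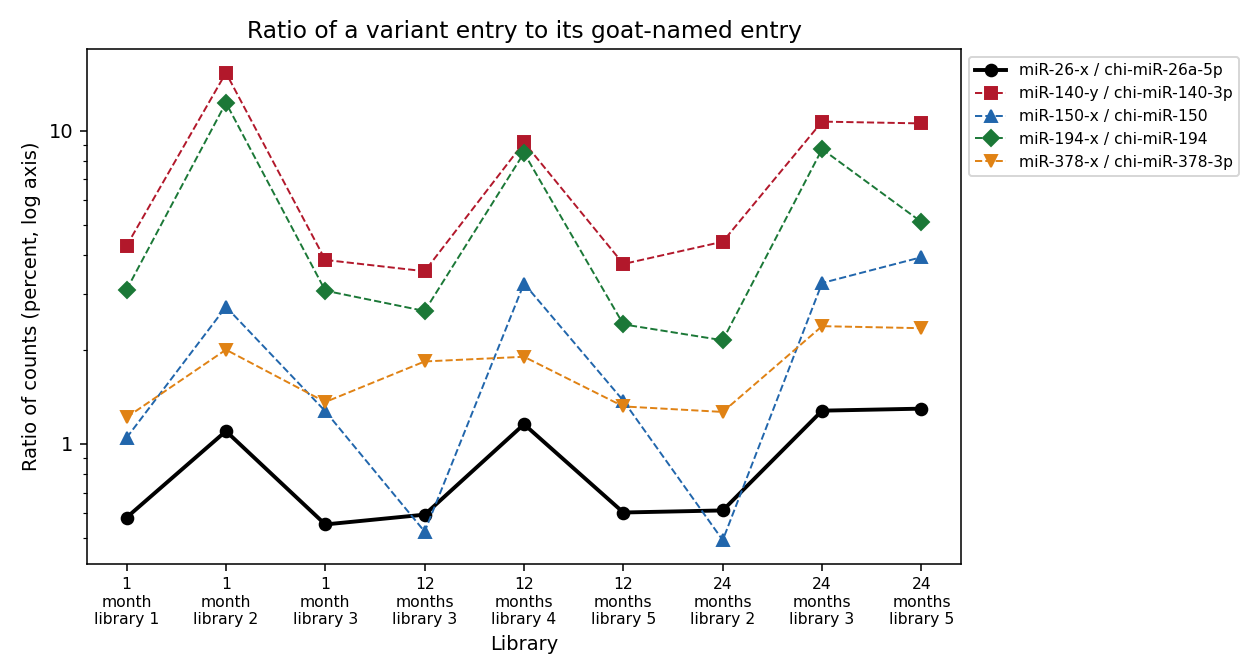
Counts of a variant entry as a percent of its goat-named entry in each library (log axis), for miR-26-x and for the 4 pairs that differ at the first base. All 5 lines are higher in 1-month 2, 12-month 4, 24-month 3 and 24-month 5 than elsewhere. The miR-26-x line lies at 1.10% to 1.30% against 0.554% to 0.614%. The miR-378-x line separates narrowly, at 1.90% in 12-month 4 against 1.83% in 12-month 3.

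This split was seen after the values were known and was not used to choose the miR-26 members. Of all 78 close pairs outside the family, those longer at the 3′ end included, 16 were higher in all of these 4 libraries than in the other 5 and 0 were lower. The 16 include the 4 first-base pairs that set the libraries apart. Higher ratios were found in 9 of 65 pairs longer at the 3′ end and 3 of 7 that differ at the last shared base. Some pairs share a goat-named entry, so they are not independent. Among all 937 entries 2.88% had TMM-scaled levels that were higher in each of the 4 than in each of the 5, and 24 of those 27 entries had other names (5.58% of those tested), while 2 of 358 goat-named entries did. In the other direction 3.31% of entries were lower in each of the 4, with 0 members of the family. Higher levels in each of the 4 held for miR-26-x within the family. It did not hold for miR-26-y, at 13.5 to 29.04 against 8.0 to 14.5 TMM-scaled CPM, nor for chi-miR-26a-5p, chi-miR-26b-5p or chi-miR-26b-3p. The ratio of miR-26-y to chi-miR-26a-5p did separate the sets, at 0.0148% to 0.0219% against 0.00671% to 0.0110%. The labels name no batch, library kit lot or sequencing day, and a source of the split was not tested. With the split as a covariate in edgeR, the log2 differences of miR-26-x were 0.12, 0.08 and 0.19 (adjusted p = 0.806, 0.998 and 0.696) in place of −0.03, 0.44 and 0.41 for 12 against 1, 24 against 12 and 24 against 1 month, and 0 of 5 members were called.

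Other miRNAs known as restraints on growth or on EZH2 are given for context, as a list chosen with earlier results known. Of 33 tested entries of let-7, miR-101, miR-138, miR-214 and miR-29, 8 rose and 1 fell between 1 and 12 months by edgeR, against 5.98% and 13.2% of all entries, and 11 rose and 2 fell between 1 and 24 months, against 8.75% and 17.5%. None passed between 12 and 24 months. Their median log2 difference was 0.44 between 1 and 12 months, where that of the 5 miR-26 entries was −0.03 and that of all entries −0.02. miR-101, which also targets EZH2, had 2 of 3 entries higher between 1 and 12 months, chi-miR-101-3p at 1.14 (SE 0.34, adjusted p = 0.0378 by edgeR) and its longer form miR-101-y at 2.09 (SE 0.41, adjusted p = 0.00678). Of miR-29, a family that restrains collagen synthesis, 5 of 7 rose between the same ages, and of let-7 1 of 19 rose and 1 fell. Of miR-214 0 of 3 entries passed, with a median log2 difference of −0.62 between 1 and 12 months and −1.17 between 1 and 24 months, and of miR-138 0 of 1 passed. The leukocyte and epithelial shares given above moved with the same comparisons, and their part in these calls was not tested. That the response of miR-26 differs from theirs was not tested either.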

How the data were processed

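Small RNA was measured in 9 libraries, 3 per age. The authors deposited unscaled read counts per mature miRNA entry, with the sequence of each, per the file headers. FastQC and Bowtie are named, with no role, per the submitters' processing notes. No source used here gives the build, the miRNA database or the mismatches allowed, and reads of near-identical sequences may be split between entries. Groups came from the age label. The members, lists and tests were chosen with earlier results of these data known.

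A single fit held all 9 libraries (edgeR 4.0.16, R 4.3.3; minimum count 10, minimum total 15, TMM scaling, quasi-likelihood test with robust spread, residual degrees of freedom 6), with p-values adjusted by Benjamini and Hochberg over 937 entries at a threshold of 0.05. All 5 members passed the filter. The test was checked on simulated data. DESeq2 1.42.0 and limma 3.58.1 (voom) were alternatives, as were other scalings, no filter, both ages alone, identical sequences summed, a replicate block and leaving out each library. Ratios within a library were compared with exact permutation tests (scipy 1.17.1). Wilson intervals are at 95% and cover counting error only, since the reads carry no molecular identifiers. Named entries were all members, seed relatives, the 10 most abundant entries and the 5 nearest profiles. The pairs of variant entries and the library split were chosen after values were seen, as were the growth-restraining miRNAs. Of the calls among the latter, those of miR-101 alone are named by entry.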

Additional observations from a re-analysis of the deposited data

How the results depend on the processing

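The count of members called stayed at 0 under every setting, except that it was 1 for 24 against 1 month without 1-month 2. Leaving out 1 library gave 0 to 1 for that comparison and 0 elsewhere. The share of all entries called under these settings is not given here. Of 285 log2 differences recomputed, 56 changed sign and 1 passed. That of miR-26-x for 24 against 1 month ran from 0.041 (without 24-month 5) to 1.00 (without 1-month 2) when 1 library was left out. For 12 against 1 month chi-miR-26a-5p stood at −0.053 with DESeq2 size factors and with DESeq2, −0.14 with library size, −0.17 with no filter, −0.21 with identical sequences summed and −0.22 with both ages alone. chi-miR-26b-5p stood at 0.092, chi-miR-26b-3p at 0.13 and miR-26-x at 0.12 with the upper quartile, and miR-26-x at 0.11 with limma voom. With the library split, added after seeing the data, chi-miR-26b-3p was 0.0028 and miR-26-x 0.12. For 24 against 12 months chi-miR-26a-5p was 0.078 with identical sequences summed and miR-26-y −0.32 with the split. For 24 against 1 month chi-miR-26a-5p was 0.15 with the upper quartile and 0.015 with the split, and miR-26-y 0.055 with the upper quartile. There chi-miR-26b-5p was −0.26 with library size, −0.20 with no filter, −0.10 with identical sequences summed and −0.055 with both ages alone, and chi-miR-26b-3p −0.061 with library size and −0.072 with no filter. The causes were not tested.

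Without 1 library each, the ranges for 12 against 1 month were −0.45 to 0.24 (chi-miR-26a-5p), −0.60 to 0.16 (chi-miR-26b-5p), −0.45 to 0.15 (chi-miR-26b-3p), −0.35 to 0.55 (miR-26-x) and −0.71 to 0.40 (miR-26-y). For 24 against 12 months they were −0.23 to 0.30 (chi-miR-26a-5p) and −0.065 to 0.54 (chi-miR-26b-5p). For 24 against 1 month they were −0.22 to 0.12, −0.33 to 0.25, −0.050 to 0.35 and −0.42 to 0.56 (chi-miR-26a-5p, chi-miR-26b-5p, chi-miR-26b-3p and miR-26-y). The log2 ratio of miR-26-x to chi-miR-26a-5p for 12 against 1 month was −0.073 with summed counts and −0.24 to 0.39 without 1 library. The family's share differed by −1.95 percentage points between 24 and 1 month, and by −3.66 over goat-named counts, and it ran from −2.57 to −1.19 without 1 library.

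With the replicate block (2 residual degrees of freedom), chi-miR-26b-5p was 0.13 and −0.034 for 12 against 1 and 24 against 12 months. In that fit 0 members were called, and the share of all entries called is not given here. Deviations of same-numbered libraries from their age means had correlations of −0.20 to 0.15. With means of 3 libraries this cannot exclude that the numbers pair samples, and the main fit used no pairing.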
